A study of Mus musculus with 4 samples.

Results

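DNA methylation was examined at the genes that write, maintain, remove or read the mark: Dnmt1, Uhrf1, Dnmt3a, Dnmt3b, Dnmt3l, Tet1, Tet2, Tet3, Tdg and Mbd2. Peaks of all libraries that overlapped by at least 1 bp were joined into regions, and a region was assigned to a gene when it overlapped its body or the 2 kb upstream of it. This gave 78 regions in the 10 genes, of 186169 regions in all, while 17052 protein-coding genes had at least 1 region. The measurement was MeDIP-seq, in which an antibody against methylated cytosine enriches DNA fragments before sequencing, so that tags pile up where methylated CpG sites are dense. It reports methylation along these genes and not how much of their RNA or protein was made. There were 2 libraries from WT and 2 from βRapKO islets, all from mice 8 weeks old. The labels give a C57BL/6 strain background, while the study's methods describe the Cre line as one of mixed background, so that a contribution of another strain is possible. Both genotypes carried the floxed allele (Raptor lox/lox), and the βRapKO (KO) mice carried RipCre in addition, which expresses Cre recombinase from a rat insulin promoter. Raptor is an essential subunit of the growth-regulating kinase complex mTORC1. The other endocrine and vascular cells of a handpicked islet were therefore not targeted, and, since the WT mice had no Cre, the presence of Cre and the loss of Raptor cannot be told apart. The sources used here do not say whether a library was made from 1 or several animals. A change in methylation within cells and a change in the mix of islet cells cannot be told apart either. Peak calls carry no expression markers, so that neither the tissue label nor the deletion was checked.

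DNMT3A and DNMT3B place methyl groups on unmethylated CpG sites, with DNMT3L as a cofactor that has no catalytic activity of its own. After replication UHRF1 recognises hemimethylated DNA and recruits DNMT1, which copies the mark to the new strand. TET1, TET2 and TET3 oxidise methylated cytosine, TDG excises the oxidised products, and MBD2 binds methylated CpG sites. In beta cells, de novo methylation is known for silencing metabolic genes that mature cells do not use.

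The sequences printed next show where a peak was and was not called, from CpG-dense coding exons to promoters. All are from GRCm38 (mm10), are written 5′ to 3′ on the strand of the gene, and have every CpG site in capitals. Region numbers count along each gene from its 5′ end. The first pair are the middle 300 bases of CpG-dense exonic regions that had a peak in all 4 libraries. Tet1 region 2 lay in exon 2 at the start of a protein-coding transcript (chr10:62879623-62879922, minus strand, 19 CpG sites). Tet3 region 11 lay in exon 12 (chr6:83368153-83368452, minus strand, 17 CpG sites).
Tet1 region 2: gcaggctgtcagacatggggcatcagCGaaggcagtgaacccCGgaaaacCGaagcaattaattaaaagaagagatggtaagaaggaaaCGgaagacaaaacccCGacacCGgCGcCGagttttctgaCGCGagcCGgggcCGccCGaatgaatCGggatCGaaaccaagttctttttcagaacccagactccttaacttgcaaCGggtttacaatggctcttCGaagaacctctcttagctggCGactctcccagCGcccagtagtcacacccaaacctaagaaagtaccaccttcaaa
Tet3 region 11: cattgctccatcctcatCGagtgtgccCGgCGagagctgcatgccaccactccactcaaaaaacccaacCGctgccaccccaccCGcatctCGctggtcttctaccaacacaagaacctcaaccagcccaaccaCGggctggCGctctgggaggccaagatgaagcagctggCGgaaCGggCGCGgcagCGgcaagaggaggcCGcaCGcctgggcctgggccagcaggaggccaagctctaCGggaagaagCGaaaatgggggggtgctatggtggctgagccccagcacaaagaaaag
The second pair are the middle 300 bases of regions called in both libraries of 1 genotype and in neither of the other. Dnmt1 region 6 was called in βRapKO only (chr9:20932202-20932501, minus strand, 7 CpG sites), and Tet3 region 8 in WT only (chr6:83382585-83382884, minus strand, 8 CpG sites).
Dnmt1 region 6: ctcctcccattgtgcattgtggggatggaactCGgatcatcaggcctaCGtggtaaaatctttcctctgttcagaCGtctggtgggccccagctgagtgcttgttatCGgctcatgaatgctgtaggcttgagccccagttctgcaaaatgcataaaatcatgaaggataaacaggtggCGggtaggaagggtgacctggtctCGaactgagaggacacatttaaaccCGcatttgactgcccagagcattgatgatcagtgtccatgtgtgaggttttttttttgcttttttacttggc
Tet3 region 8: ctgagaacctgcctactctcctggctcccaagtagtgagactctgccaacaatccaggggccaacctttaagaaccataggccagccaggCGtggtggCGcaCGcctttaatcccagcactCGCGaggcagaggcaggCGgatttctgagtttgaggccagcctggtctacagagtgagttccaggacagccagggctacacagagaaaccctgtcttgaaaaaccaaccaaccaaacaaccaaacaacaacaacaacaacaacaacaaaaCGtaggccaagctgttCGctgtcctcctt
The third pair are the 250 bases before 2 RefSeq starts, shown for the promoter with the most CpG sites and for a CpG-poor promoter under a region. The Tet2 promoter had no region (chr3:133544391-133544640, minus strand, 51 CpG sites), whereas the Dnmt3l promoter had one (chr10:78049592-78049841, plus strand, 4 CpG sites).
Tet2 promoter: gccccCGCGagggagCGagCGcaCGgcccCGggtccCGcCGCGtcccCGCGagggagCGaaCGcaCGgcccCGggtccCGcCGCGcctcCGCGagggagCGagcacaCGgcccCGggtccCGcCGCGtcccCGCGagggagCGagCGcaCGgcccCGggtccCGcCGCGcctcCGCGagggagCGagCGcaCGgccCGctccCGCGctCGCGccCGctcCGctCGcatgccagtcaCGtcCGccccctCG
Dnmt3l promoter: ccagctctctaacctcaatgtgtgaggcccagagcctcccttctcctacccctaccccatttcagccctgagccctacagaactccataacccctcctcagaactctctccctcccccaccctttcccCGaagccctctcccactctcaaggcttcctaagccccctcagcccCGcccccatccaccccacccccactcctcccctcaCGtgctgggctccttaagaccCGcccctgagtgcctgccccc

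Among the RefSeq promoters of the 9 genes that could be read, only those of Dnmt3l had a methylated region over them. Outside these promoters, Tet1 region 2 and Tdg region 3 each lay over the start of another annotated protein-coding transcript. The Tdg region had no peak in WT replicate 1. The RefSeq promoters, each 250 bases before to 50 after a start in GRCm38.p6, numbered 16 for these 9 genes, and only the letters CG were searched, which read alike on both strands. Mbd2 was not among the genes with a promoter sequence. The 3 Dnmt3l promoters held 6, 4 and 3 CpG sites, and each had a region over it. The most upstream was covered by region 1 (chr10:78041361-78042287), with 37 tags in WT replicate 2 and 36 in βRapKO replicate 2 and no peak in the other libraries. Its window also reaches Aire, the neighbouring gene. The middle promoter was covered by region 3 (chr10:78049416-78050281), with 31 and 33 tags in the WT libraries, 33 in βRapKO replicate 1 and no peak in βRapKO replicate 2. The third was covered by region 4, with a peak in all 4 libraries. The most upstream and middle calls thus differed between libraries of 1 genotype, and only the third promoter was called throughout.

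None of the 13 promoters of the other 8 genes had a region (0 of 13), and 12 of them held at least 12 CpG sites. The Tet2 promoter was the densest with 57 CpG sites, a number that 0.152% of all RefSeq promoters reach. The Dnmt3a promoters held 46, 47 and 18, and the first pair of them overlap. The promoters held 33, 12 and 2 CpG sites at Dnmt1, 12 and 33 at Uhrf1, 30 at Dnmt3b, 26 at Tdg, 22 at Tet3 and 17 at Tet1. Of the 16 promoters 3 had a region (18.75%), while among all 32851 promoters 11.7% had one. The share was 14.3% of those with at most the median of 7 CpG sites and 8.99% of those with more. At least 4 CpG sites were found in 68.6% of all promoters, at least 3 in 76.7% and at least 6 in 56.4%. The CpG-poor Dnmt1 promoter with 2 sites had Dnmt1 region 1 at 383 bp from the nearest annotated start (chr9:20960271-20961335), with 46 and 74 tags in the WT libraries, 44 in βRapKO replicate 2 and no peak in βRapKO replicate 1. Dnmt1 region 2 (chr9:20958344-20959390) lay 498 bp from that start on its other side. It had 51 tags in βRapKO replicate 1 and no peak in the other libraries. When each library was used alone, 2, 3, 2 and 2 promoters were covered in WT replicates 1 and 2 and βRapKO replicates 1 and 2, all of Dnmt3l. A promoter without a call is one that did not pass the peak threshold, and how many of its CpG sites were methylated cannot be read from these files.

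**Figure D1:**
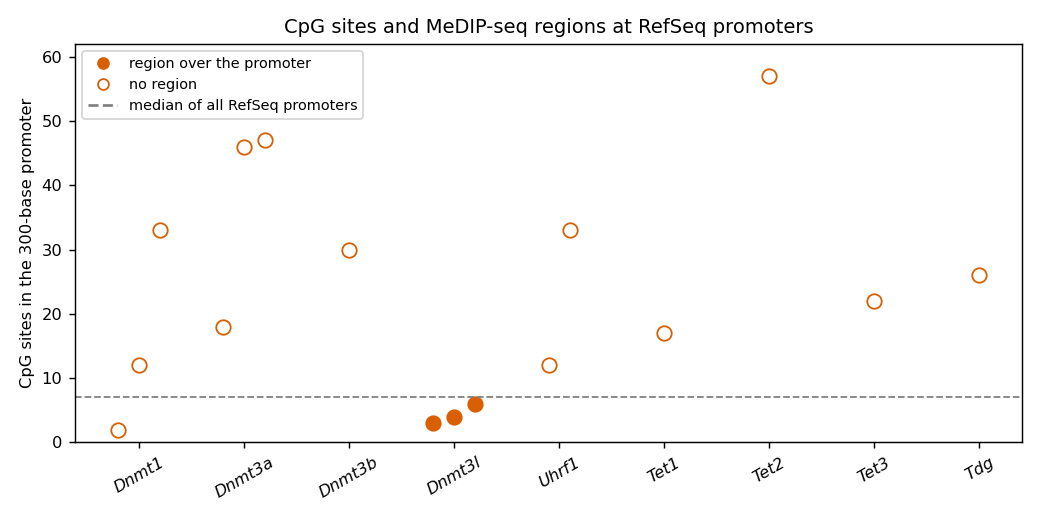
CpG sites in each of the 16 RefSeq promoters of 9 genes (y axis), with filled circles for promoters under a merged MeDIP-seq region and open circles for those without one. The dashed line is the median of 7 over all promoters: the 3 filled circles of Dnmt3l sit below it, and all open circles but 1 of Dnmt1 sit above it.

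The regions lay along the gene bodies, which also make up most of the window searched. Of the 78 regions, 40 overlapped an exon of the principal transcript, 32 lay inside 1 intron and 6 lay upstream or downstream of that transcript. Counting the starts of all annotated transcripts, short and noncoding ones included, 27 regions lay within 2 kb of a start, and 14 lay within 2 kb of the start of a protein-coding transcript. These 14 were in Dnmt1 (regions 1 and 2), Dnmt3a (regions 1, 5, 6 and 8), Dnmt3l (all 4), Tet1 (regions 2, 3 and 13) and Tdg (region 3). Per 10 kb of gene body and upstream 2 kb, the number of regions was highest at Uhrf1 (1.80) and Tdg (1.74), followed by Dnmt3l (1.69) and Dnmt1 (1.65). It was 1.32 at Tet3, 1.32 at Tet1, 1.24 at Dnmt3b, 1.198 at Tet2 and 1.001 at Mbd2, and lowest at Dnmt3a (0.815). Tet3 and Tet1 were thus alike, and Dnmt3a had the sparsest regions of the 10. The median CpG density was 1.79 sites per 100 bp in the regions of the 10 genes and 1.60 over all regions. Repeats made up a median of 21.2% of their bases, against 24.4% over all regions. Their median width was 1066 bp, against 1143 bp.

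**Figure D2:**
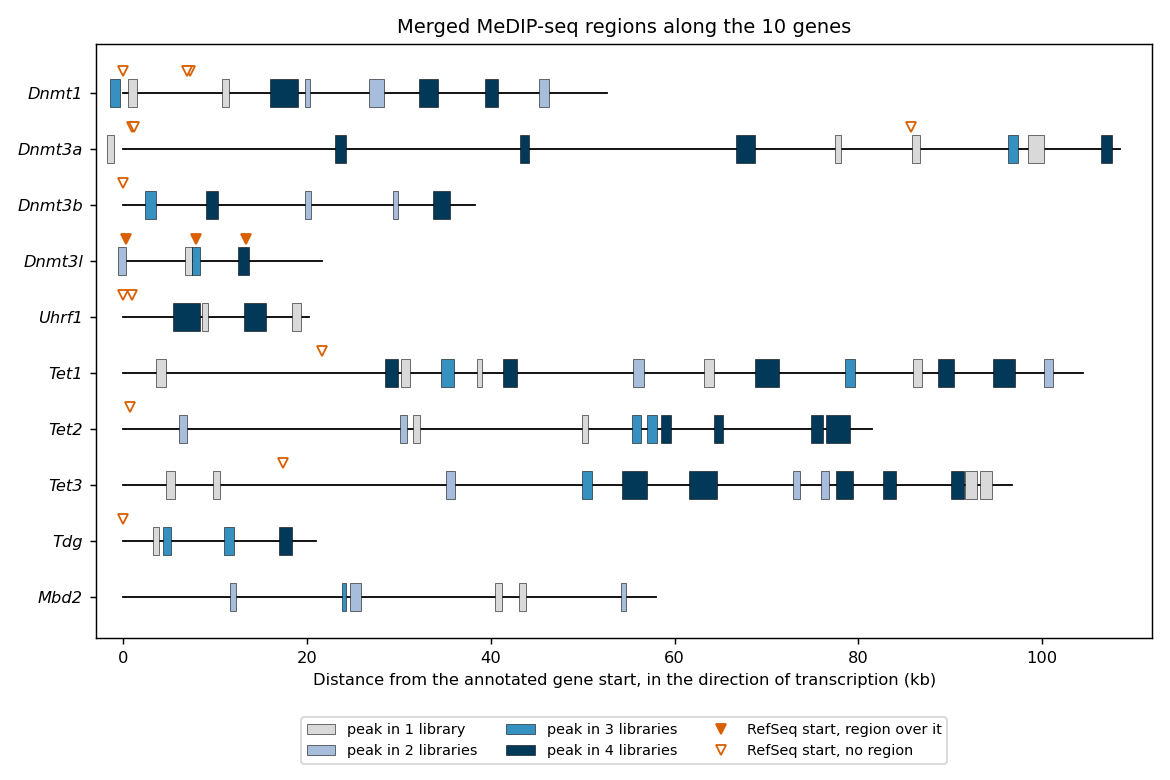
Merged MeDIP-seq regions (boxes, drawn to scale) along the 10 genes, aligned at the annotated gene start with distance in kb on the x axis and shaded by the number of libraries with a peak. Triangles mark RefSeq starts, filled where a region covers the promoter: regions lie along the gene bodies, and the 3 filled triangles are all at Dnmt3l.

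The libraries held 25585533 to 31330751 tags after duplicates were removed and 117638 to 151093 peaks, and the deepest, WT replicate 2, had the most peaks. It also had a peak at most of the 78 regions (59, or 75.6%), compared with 46 (59.0%) in WT replicate 1, 49 (62.8%) in βRapKO replicate 1 and 45 (57.7%) in βRapKO replicate 2. Over all regions the shares were 78.9%, 64.0%, 62.3% and 63.6% in the same order. All 4 libraries had a peak at 27 of the 78 regions (34.6%, against 40.3% of all regions), in 3 at 12, in 2 at 16 and in a single library at 23. The deepest library thus had the most calls at these genes, and the other libraries lay within 4 calls of each other.

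Only regions with a peak in all 4 libraries have a tag count in each, and these 27 were tested among 75052 such regions. Counts are given as CPM, tags per 1000000 tags left after removal of duplicates. In the quasi-likelihood test of edgeR, adjusted after Benjamini and Hochberg, 0 of the 27 regions passed an FDR of 0.05, and 0% of all tested regions did. The adjusted p of the 27 lay between 0.849 and 0.998. An unadjusted p under 0.05 was reached by 1 of the 27, against 5.81% of all tested regions, by 0 with DESeq2 and by 1 with limma. It was reached by 5 of the 27 per kb of peak. The 5.81% belongs to the edgeR fit, and no share over all tested regions is given here for the other fits. Per kb of peak, 79.6% of all tested regions had a log2 fold-change of βRapKO over WT below 0, so the 5 cannot be read against 5.81%. The median log2 fold-change of βRapKO over WT was −0.078 at the 27 regions and −0.059 over all tested regions. It was below 0 at 20 of the 27 (74.1%), against 60.8% of all tested regions. That balance rested on the scaling: 15 of 27 were below 0 with TMM and 15 with DESeq2, and 8 when CPM was taken over the tags in peaks, which moved the median to 0.086 at the 27 regions and to 0.10 over all. Over all tested regions the median was 0.0038 with TMM and 0.0017 with DESeq2, and the shares below 0 at these settings are not given here. Without βRapKO replicate 1 the median was −0.026 at the 27 regions and −0.028 over all tested regions. Without βRapKO replicate 2 it was −0.20 and −0.10. At 6 of the 27, both βRapKO libraries lay below both of WT, where 25.3% of all tested regions had this order, and above both at 2, where 11.6% did. At the other 19 the genotypes overlapped.

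**Figure D3:**
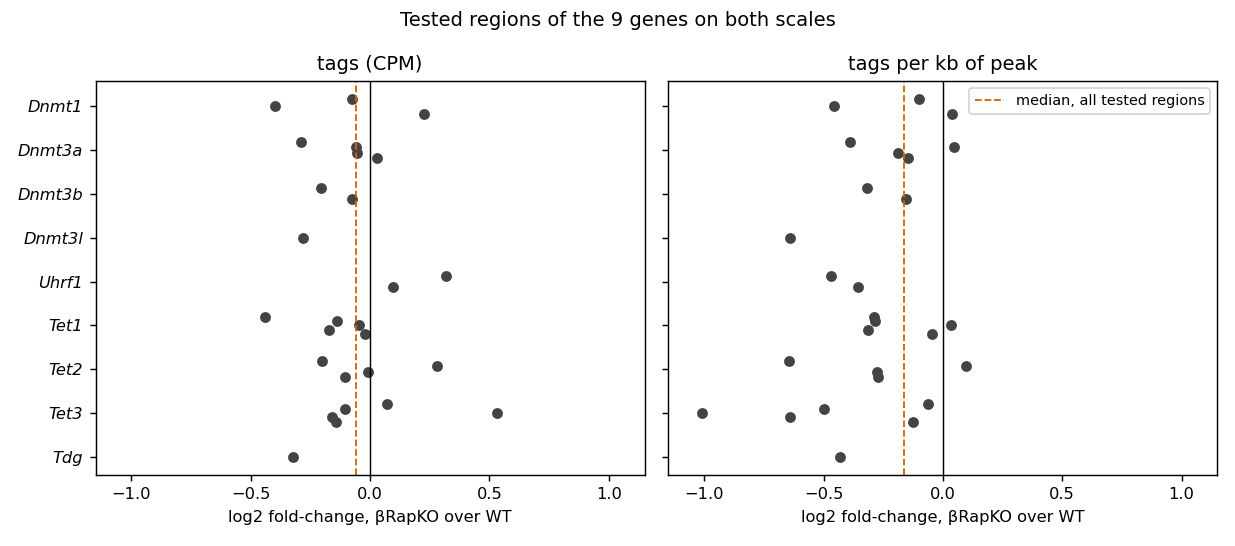
log2 fold-change of βRapKO over WT at the 27 tested regions of 9 genes, for tags in CPM (left) and for tags per kb of peak (right), with 1 point per region and the dashed line at the median of all tested regions (−0.059 and −0.16). Most points sit between −0.5 and 0.5, and the Tet3 point farthest to the right in the left panel is farthest to the left in the right panel.

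No region of the maintenance genes passed the test. DNMT1, which copies the mark, had most tags at its region 7 over exons 13 to 16 (chr9:20925680-20927705). Replicates 1 and 2 had 5.47 and 4.18 CPM in WT and 3.18 and 4.11 CPM in βRapKO. Both βRapKO values were below both WT values, but WT replicate 2 and βRapKO replicate 2 were nearly equal (log2 fold-change −0.40 ± 0.21 SE and edgeR adjusted p = 0.858). It was −0.20 without WT replicate 1, −0.22 without βRapKO replicate 1 and −0.25 with library sizes from tags in peaks. It was −0.58 without WT replicate 2, −0.59 without βRapKO replicate 2 and −0.46 per kb of peak. Dnmt1 region 8 over exons 22 to 23 had the opposite order, with 1.88 and 2.49 CPM in WT and 2.50 and 2.64 in βRapKO. Dnmt1 region 4 over exons 2 to 4 had 3.64 and 4.53 CPM in WT and 3.32 and 4.46 in βRapKO, so that the genotypes overlapped. At Uhrf1, whose product recruits DNMT1, the values turned on 1 library. Region 3 over exons 11 to 13 (chr17:56316434-56318848) had 3.13 and 3.64 CPM in WT and 4.45 and 2.81 in βRapKO. Region 1 over exons 3 to 4 (chr17:56308701-56311638) had 2.66 and 2.33 CPM in WT and 4.45 and 1.75 in βRapKO. In both, βRapKO replicate 1 was the highest of the 4 libraries and βRapKO replicate 2 the lowest. The peaks of βRapKO replicate 1 at region 1 covered 2.90 kb, against 0.831 to 1.31 kb in the other libraries. Without that library the log2 fold-change at region 1 went from 0.32 to −0.51 and at region 3 from 0.098 to −0.27. Counted per kb of peak it was −0.47 and −0.36.

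At the de novo methyltransferases and their cofactor no region passed either, and most values of the genotypes overlapped or nearly met. Dnmt3a region 4 over exons 5 to 6 (chr12:3872635-3874745), which had the most tags of that gene, had 2.93 and 2.87 CPM in WT and 2.53 and 3.05 in βRapKO. The βRapKO values lay on either side of the WT values (log2 fold-change −0.055 ± 0.19 SE). Dnmt3a region 2 in intron 1 had 1.76 and 1.92 CPM in WT and 1.47 and 1.54 in βRapKO, so that the genotypes did not overlap. Dnmt3a region 3, in exon 3 over the start of a transcript subject to nonsense-mediated decay, had 1.37 and 2.01 CPM in WT and 1.88 and 1.41 in βRapKO. Dnmt3a region 9 in exon 23 had 1.45 and 1.60 CPM in WT and 1.51 and 1.61 in βRapKO. Regions 3 and 9 had no order by genotype. Dnmt3b region 5 over exons 21 to 22 (chr2:153683149-153684977) had 2.93 and 3.06 CPM in WT and 2.74 and 2.95 in βRapKO, and Dnmt3b region 2 in intron 1 had 2.35 and 2.59 in WT and 1.81 and 2.47 in βRapKO. At both regions βRapKO replicate 2 lay within the WT values. Dnmt3l region 4 (chr10:78054439-78055585), which covers exon 10 and the third promoter of this cofactor gene, had 2.07 and 1.63 CPM in WT and 1.403 and 1.61 in βRapKO. The groups did not overlap, but WT replicate 2 and βRapKO replicate 2 differed by little (log2 fold-change −0.28 ± 0.21 SE and edgeR adjusted p = 0.871). It was −0.11 without WT replicate 1, −0.46 without WT replicate 2, −0.19 without βRapKO replicate 1, −0.12 with library sizes from tags in peaks and −0.64 per kb of peak.

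Among the TET dioxygenases, the region with most tags of all 10 genes was Tet1 region 13 over exons 12 to 13 (chr10:62811981-62814385), which had more tags than 93.0% of all tested regions. It had 6.61 and 7.72 CPM in WT and 6.74 and 7.40 in βRapKO. Its highest fold enrichment over the local background was 12.2 and 13.2 in WT and 12.1 and 8.95 in βRapKO. The genotypes did not separate in tags (log2 fold-change −0.021 ± 0.14 SE). Tet1 region 2 (chr10:62879052-62880492), at the start of a protein-coding transcript, had 2.50 and 2.08 CPM in WT and 1.81 and 1.54 in βRapKO. The genotypes did not overlap, and the log2 fold-change was the lowest of the 27 (−0.44 ± 0.21 SE, with an edgeR p of 0.071 unadjusted and 0.858 adjusted). With library sizes from tags in peaks it was −0.28. Without WT replicate 1 or 2 it was −0.31 and −0.57, and without βRapKO replicate 1 or 2 it was −0.56 and −0.33. Per kb of peak it was −0.29, where the peaks of region 2 covered 1.43 and 1.07 kb in WT and 1.34 and 0.921 kb in βRapKO. The other tested Tet1 regions, 6, 9 and 12, overlapped between genotypes, with values from 1.79 to 4.04 CPM.

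Tet2 had most tags at region 10 in exon 11 (chr3:133466107-133468615), with 2.66 and 3.54 CPM in WT and 2.16 and 3.63 in βRapKO. Replicate 2 was the higher in each genotype, and the ranges overlapped. Tet2 region 7 in exon 3 had 1.76 and 1.53 CPM in WT and 1.44 and 1.41 in βRapKO, so both βRapKO libraries were lower (log2 fold-change −0.20 ± 0.18 SE). Tet2 regions 8 and 9 overlapped, with 1.09 to 2.31 CPM. Tet3 had most tags at region 11 in exon 12 (chr6:83367547-83369057), the region with the densest CpG sites of the 78 (3.51 per 100 bp). It had 4.69 and 4.95 CPM in WT and 3.80 and 4.94 in βRapKO, so that βRapKO replicate 1 alone stood below the others. Tet3 regions 5, 6 and 10 overlapped, with 1.47 to 3.80 CPM.

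Tet3 region 9 in exon 6 (chr6:83379687-83381472) was singled out after its values were seen, as the only one of the 27 with an unadjusted p under 0.05. It had 1.95 and 1.82 CPM in WT and 2.50 and 2.95 in βRapKO, both βRapKO libraries above both WT libraries. The log2 fold-change was 0.53 ± 0.20 SE (edgeR p of 0.0307 unadjusted and 0.849 adjusted), but −1.01 per kb of peak. The peaks at region 9 covered 0.554 and 0.512 kb in WT and 1.75 and 1.36 kb in βRapKO. Their highest fold enrichment over the local background was 8.82 and 8.00 in WT and 4.86 and 5.11 in βRapKO. The peaks thus covered more bases at a lower highest enrichment in both βRapKO libraries, as 1 peak in replicate 1 and 2 peaks in replicate 2. The direction depended on whether tags or tags per kb were compared. Over the 27 regions tags per kb gave a median log2 fold-change of −0.29, below 0 at 23 (85.2%). Over all tested regions the median was −0.16, below 0 at 79.6%.

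Tdg encodes the glycosylase that excises oxidised cytosine, and Tdg region 4 over exons 8 to 9 was its only tested region (chr10:82646740-82648239). It had 3.75 and 3.83 CPM in WT and 2.70 and 3.36 in βRapKO. Both βRapKO libraries were below the narrow WT range (log2 fold-change −0.32 ± 0.18 SE and edgeR adjusted p = 0.861). It was −0.17 without βRapKO replicate 1, −0.49 without βRapKO replicate 2 and −0.16 with library sizes from tags in peaks. No region of Mbd2, which encodes a reader of methylated CpG sites, had a peak in all 4 libraries, and its 6 regions had 24 to 46 tags wherever they were called. Over all alternatives computed for the regions with most tags, Uhrf1 region 1, Tet1 region 2 and Tet3 region 9, the adjusted p was 0.346 or more.

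**Figure D4:**
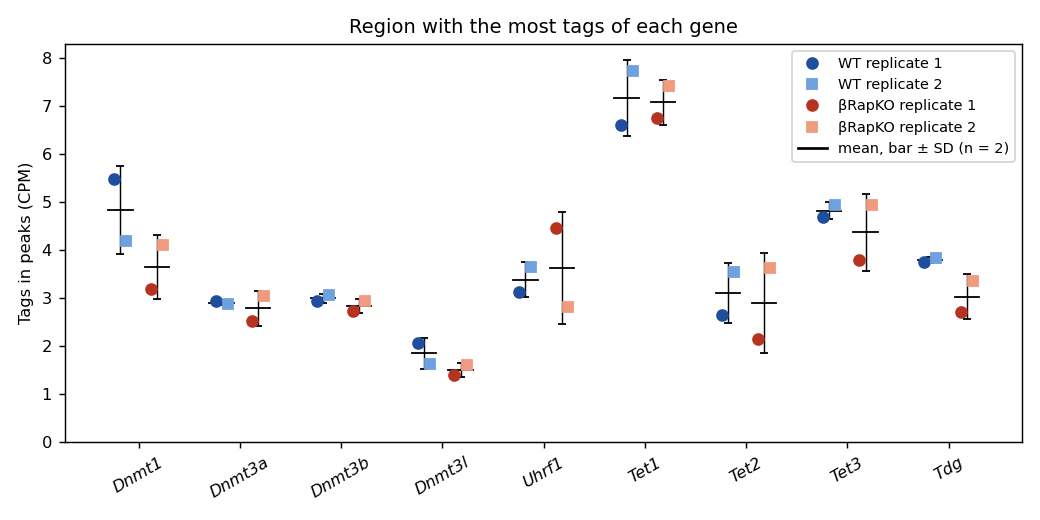
Tags in CPM (y axis) at the tested region with the most tags of each of the 9 genes that had one, with 1 point per library and the mean ± SD of each genotype (n = 2). The genotypes overlap at 6 genes, and both βRapKO points lie below both WT points at Dnmt1, Dnmt3l and Tdg.

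Adding up the tags of the tested regions gave 1 value per gene. Dnmt1 had 11.1 ± 0.156 CPM in WT and 10.1 ± 1.56 in βRapKO (SD, n = 2 libraries each here and below), and Uhrf1 had 5.88 ± 0.130 and 6.73 ± 3.07. Dnmt3a had 7.95 ± 0.629 CPM in WT and 7.501 ± 0.154 in βRapKO, Dnmt3b 5.46 ± 0.264 and 4.98 ± 0.611, and Dnmt3l 1.85 ± 0.314 and 1.51 ± 0.147. The 3 dioxygenases, like Dnmt1, Dnmt3b and Uhrf1, differed by less than 1 SD of the βRapKO libraries. All of these genes but Tet3 differed by more than 1 SD of the WT libraries. Tet1 had 17.5 ± 0.365 CPM in WT and 16.2 ± 2.29 in βRapKO, Tet2 7.85 ± 0.126 and 7.62 ± 1.10, and Tet3 14.5 ± 1.04 and 14.5 ± 1.35. Tdg had 3.79 ± 0.055 and 3.03 ± 0.463. None of the 9 genes passed an FDR of 0.05 in the edgeR test over 13351 genes (0 of 9, against 0% of all genes), with adjusted p from 0.639 to 0.998, and 0 of 9 had an unadjusted p under 0.05, against 8.54% of all genes. DESeq2 and limma on the same sums also called 0 of 9.

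Regions called in 1 genotype only were few. Tet3 region 8 in intron 5 (chr6:83382318-83383151) had 40 and 46 tags in the WT libraries and no peak in either βRapKO library. Mbd2 region 6 in exon 6 (chr18:70622381-70622886) had 24 and 36 tags in WT and no peak in βRapKO. These 2 were 2.56% of the 78 regions, against 4.16% of all regions. Dnmt1 region 6 in exon 10 (chr9:20931505-20933198) had 81 and 77 tags in the βRapKO libraries and no peak in WT, and was the only one of this kind (1.28%, against 1.58% of all regions). With no count outside peaks, the size of these differences cannot be given. The numbers depended on each library: 11, 6, 6 and 7 regions were called in WT only when WT replicate 1, WT replicate 2, βRapKO replicate 1 or βRapKO replicate 2 was left out. Regions called in βRapKO only then numbered 1, 4, 4 and 8. With 1 library of a genotype left out, a call in its other library was enough, so these counts cannot be read against 4.16% and 1.58%. Of the 11 regions, 9 had a peak in WT replicate 2 alone, a pattern of 11.5% of the 78 regions and 12.9% of all regions. Of the 8 regions, 7 had a peak in βRapKO replicate 1 alone, a pattern of 8.97% of the 78 and 4.998% of all.

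The wider pathway was read from 4 lists of 51 genes. Of these genes 45 had a region and 32 a tested region, and 0 were lower and 0 higher in βRapKO at an FDR of 0.05 in the edgeR test. An unadjusted p under 0.05 was reached by 5 of the 32, against 8.54% of all genes. The log2 fold-change of the summed tags was below 0 in 24 and above 0 in 8, with a median of −0.11, against −0.084 over all 13351 genes, of which 69.1% were below 0. Most genes of the lists and of the genome thus lay on the same side. By list, 6 of 9 readers of methylated CpG sites were tested (4 below 0 and 2 above), and 6 of 12 partners of the methyltransferases (3 and 3). Of the 18 genes of oxidation and repair 12 were tested (10 and 2), and of the 12 genes of the methyl donor cycle 8 (7 and 1). Gnmt and Ung were among those with the largest absolute log2 fold-change. Gnmt, which uses up S-adenosylmethionine, had 13.2 and 11.6 CPM in WT and 6.67 and 10.1 in βRapKO (log2 fold-change −0.56 ± 0.19 SE and edgeR adjusted p = 0.563). Its fold-change was −0.30 without βRapKO replicate 1, −0.89 without βRapKO replicate 2 and −0.18 per kb of peak. Ung, a uracil-DNA glycosylase, had 2.38 and 2.39 CPM in WT and 1.68 and 1.71 in βRapKO (−0.49 ± 0.19 SE and edgeR adjusted p = 0.563). In both the genotypes did not overlap, and neither passed the adjustment. Over the alternatives their adjusted p was 0.122 or more.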

How the data were processed

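The labels gave the genotype and replicate number of the MeDIP-seq libraries, 2 each from WT and βRapKO islets. The authors aligned reads with Bowtie2 (version 2.2.5). The study's methods name mm10, while the submitters' processing notes list mm9 beside it, and every peak end lay within the chromosome lengths of GRCm38. MACS (version 0.14.2 in the methods and notes, 1.4.2 per the file headers) was run by the authors on each library by itself. There was no control library, the p cutoff was 1e-05, duplicate tags were reduced to 1 per position, and the local background spanned 10000 bp. The deposited tag count of a peak was not normalized. The authors also deposited a score, the −log10 of the p multiplied by 10, and the fold enrichment over the local background, a ratio. Deeper libraries pass such a threshold more easily, though the numbers of peaks did not follow depth in every library here.

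Peaks were joined at an overlap of 1 bp, and the tags of each library were summed per region. Tags left after duplicate removal gave the library size. edgeR (version 4.0.16, R 4.3.3) tested the regions that all 4 libraries shared by quasi-likelihood, adjusted after Benjamini and Hochberg over all of them, and then the tags summed per gene. A region over several genes counted in each. The test was also run on simulated counts with the same spread for all regions, which does not show how small a change it could find here. Intervals of single counts were not computed, and errors marked SD are the spread between libraries. The SE of a log2 fold-change came from the edgeR fit, which also draws on the spread at other regions or genes. The labels do not say that libraries came from separate animals, so p-values measure only the spread between these libraries. Genes and exons came from GENCODE M21, with exons numbered along 1 principal transcript per gene. Promoters came from RefSeq (GRCm38.p6), and 9 of the 10 genes matched.

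The genes and lists were chosen with earlier results of these data known. Named were, for each gene, the tested region with the most tags, regions near annotated starts (coding ones are listed, the others counted) and regions called in both libraries of 1 genotype only, besides the 3 genes of the wider lists with the largest absolute fold-change, of which 1 is not reported here. Other tested regions are given by value because there were few. Alternatives were library sizes from tags in peaks, TMM, limma (version 3.58.1) on log2(CPM + 0.5) or on tags per kb of peak, DESeq2 (version 1.42.0), a score of at least 100, an overlap of 50% of the shorter peak, at least 50 tags in every library, gene windows with 0 or 5 kb upstream, equal numbers of top-ranked peaks, a block for the replicate number and leaving out each library. The alternatives for promoters were chosen after seeing the data. Python 3.11.15, NumPy 2.4.6 and pandas 2.3.3 were used. The microarray, western blot and Q-PCR data of the study were not analysed here.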

Additional observations from a re-analysis of the deposited data

How the results depend on the processing

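No tested region of the 10 genes passed the FDR of 0.05 under any alternative computed, and none of the 182 values computed for the named regions and genes did, although 23 of them changed sign. No change of sign was at Dnmt1 region 7, Dnmt3l region 4, Tdg region 4, Tet1 region 2, Gnmt or Ung. DESeq2 called 2 regions over the whole genome. The median log2 fold-change of the tested regions of the 10 genes was 0.086 with library sizes from tags in peaks and −0.29 per kb of peak. When each library was left out it ranged from −0.20 to −0.026, against −0.10 to −0.028 over all tested regions. In the fit with a replicate block, 0 regions passed and this median was −0.085. No pairing by replicate number was seen: over the tested regions, deviations from the genotype mean correlated by 0.0474 between same-numbered libraries. With 2 libraries per genotype this cannot exclude that same-numbered libraries were prepared together, which the labels do not say. With library sizes from tags in peaks, the log2 fold-change was 0.11 at Dnmt3a region 4, 0.086 at Dnmt3b region 5, 0.14 at Tet1 region 13, 0.057 at Tet2 region 10 and 0.017 at Tet3 region 11. With TMM and DESeq2 it was 0.0063 and 0.0043 at Dnmt3a region 4 and 0.041 and 0.041 at Tet1 region 13. With peaks of a score of at least 100 it was 0.27 at Dnmt3a region 4 and 0.16 at Tet2 region 10. Per kb of peak it was −0.36 at Uhrf1 region 3, −0.47 at Uhrf1 region 1 and −1.01 at Tet3 region 9. When each library was left out, values ran from −0.20 to 0.073 at Dnmt3a region 4, from −0.13 to 0.099 at Tet1 region 13 and from −0.53 to 0.22 at Tet2 region 10. They ran from −0.34 to 0.033 at Tet3 region 11, from −0.27 to 0.39 at Uhrf1 region 3 and from −0.51 to 0.84 at Uhrf1 region 1. Regions called in WT only numbered 5 of 33 with peaks of a score of at least 100 and 1 of 72 with equal numbers of top-ranked peaks. Without 1 library they numbered 6 to 11 of 78. Those called in βRapKO only numbered 0, 2 and 1 to 8 in the same order. Shares over all regions at these settings are not given here. The stricter peaks left 6 tested regions of the 10 genes. The promoter counts were 2 with the stricter peaks and 3 with equal numbers of peaks. The causes were not tested. A minimum of 50 tags in every library left 17 tested regions of the 10 genes and also gave 0 calls. Tags outside peaks were not used here, so no difference could be measured where a library had no peak.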
